A study of Mus musculus with 4 samples.

Results

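Integrins and the basement membrane proteins they hold on to were followed through denervation in tibialis anterior (TA) muscle of wild-type (WT) mice and of mice lacking Fgf21 in the whole body (Fgf21KO). The genes were chosen by symbol: every integrin alpha chain (Itga), every gene whose symbol starts with Itgb and a digit, every laminin alpha, beta or gamma chain (Lama, Lamb, Lamc), the nidogens Nid1 and Nid2, and Hspg2, which encodes perlecan. This rule found 35 of the 13825 genes in the count table: 14 integrin alpha chains, 6 integrin beta chains, 9 laminin chains, 3 linker proteins (Nid1, Nid2 and Hspg2) and 3 genes that carry an integrin name but encode integrin-binding proteins (Itgb1bp1, Itgb1bp2 and Itgb3bp). The table lists only genes with at least 1 read in each library, and further members of these families were not analysed here. It also lacks genes for reasons that are not given: of 6 muscle fibre markers looked up, only Myh1 was in it. A gene missing from the table is thus not read as unexpressed.

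The mice were adult males, and each group was 1 library made from 4 pooled TA muscles taken on day 14. The groups were WS for sham WT muscle, WD for WT muscle whose left sciatic nerve had lost a piece, and KS and KD for the same pair in Fgf21KO mice. The series describes the right, control leg as left innervated, whereas the study's methods describe an operation without nerve transection on that leg. If muscles of both legs came from the same mice, as either source implies, the sham and denervated pools of a genotype were not independent. WT mice were C57BL/6J, and the strain background of the global knockout is not given in the sources used here. Fgf21 itself was not analysed here, which leaves the genotype labels unchecked.

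Each muscle fibre is wrapped in a basement membrane. Laminins, built from an alpha, a beta and a gamma chain, form one of its networks, collagen IV forms the other, and nidogens and perlecan bridge them. Integrins are pairs of an alpha and a beta chain that span the plasma membrane, bind such matrix outside the cell and connect to actin through talin, kindlin and the integrin-linked kinase complex inside it. In skeletal muscle the alpha chain Itga7 pairs with Itgb1 as the main laminin-binding integrin of the fibre, Lama2 carries the main laminin alpha chain of the fibre surface, and Lamb2 is the beta chain known for its place at the neuromuscular junction. Blood vessels, nerve and connective tissue in the muscle have basement membranes and integrins of their own.

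Total counts over the genes in the table ran from 25249879 to 34141303 per library. The 35 genes took from 40269 to 45129 counts of each, with 7 to 11094 counts per gene. Counts were scaled by TMM (trimmed mean of M values, edgeR) and are given as CPM, counts relative to the scaled library total. Mitochondrially encoded transcripts took 27.0% and 30.4% of the counts in the sham libraries and 19.4% and 20.6% in the denervated ones. With total counts in place of TMM the median log2 ratio of all genes moved from 0.01 to 0.29 for WT (WD vs WS) and from 0.01 to 0.36 for Fgf21KO (KD vs KS), so every change given here is relative to the bulk of the genes. Intervals in brackets hold the 95% counting error of the reads and not the variation among mice. Within one genotype a difference has no replicate check. The test was edgeR's quasi-likelihood test of denervation or of genotype, the terms of an additive model over all 4 libraries. The model left 1 residual degree of freedom. For denervation the genotypes stood in for replicates, and for genotype the sham and denervated libraries did. If both legs came from the same mice, the genotype term took legs of the same animals as replicates. The size of the adjusted p of edgeR's test moved widely with the scaling (1.02e-06 with TMM and 7.05e-20 with DESeq2 size factors for Hspg2). It is therefore read only as passing or not passing. "Rose" and "fell" mean a Benjamini-Hochberg adjusted p below 0.05 in that test, and "called" adds a change of at least 2-fold.

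Of the 12 laminin, nidogen and perlecan genes 9 fell after denervation and none rose, while the integrin genes split: Itga9, Itgb2, Itgav and Itgb1 rose, Itgb4, Itga4, Itga6 and Itga1 fell, and Itga7 and Itgb5 stayed near their sham level. Of the 35 genes, 22 passed the adjusted p, 7 higher and 15 lower, against 26.4% of all 13084 genes tested passing upwards and 26.6% downwards. At least 2-fold, 8 were called, 4 higher (Itga9, Itgb2, Itgal, Itgam) and 4 lower (Itgb4, Itga4, Lamc3, Itga6), against a background of 6.8% higher and 6.15% lower. With total counts in place of TMM, 11 passed the adjusted p as higher and 12 as lower. Of the laminin, nidogen and perlecan genes that fell, all but Lamc3 still passed as lower with total counts. Their additive log2 changes were then smaller in size, from -0.66 (Lama4) to -0.26 (Lamc1). The log2 ratio was below 0 in both genotypes for 21 of the 35, against 40.6% of all genes, and the median over the 35 was -0.26 for WT and -0.25 for Fgf21KO, against 0.01 in both over all genes. By the log2 ratio alone, WD and WS differed 2-fold or more for 9 of the 35 (2 higher, 7 lower), where 7.25% of all genes were higher and 7.52% lower. In KD vs KS there were 10 (5 higher, 5 lower), with 7.52% and 6.07% of all genes. Of these genes, 3 of the WT and 5 of the Fgf21KO set had a mean count under 50.

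**Figure D1:**
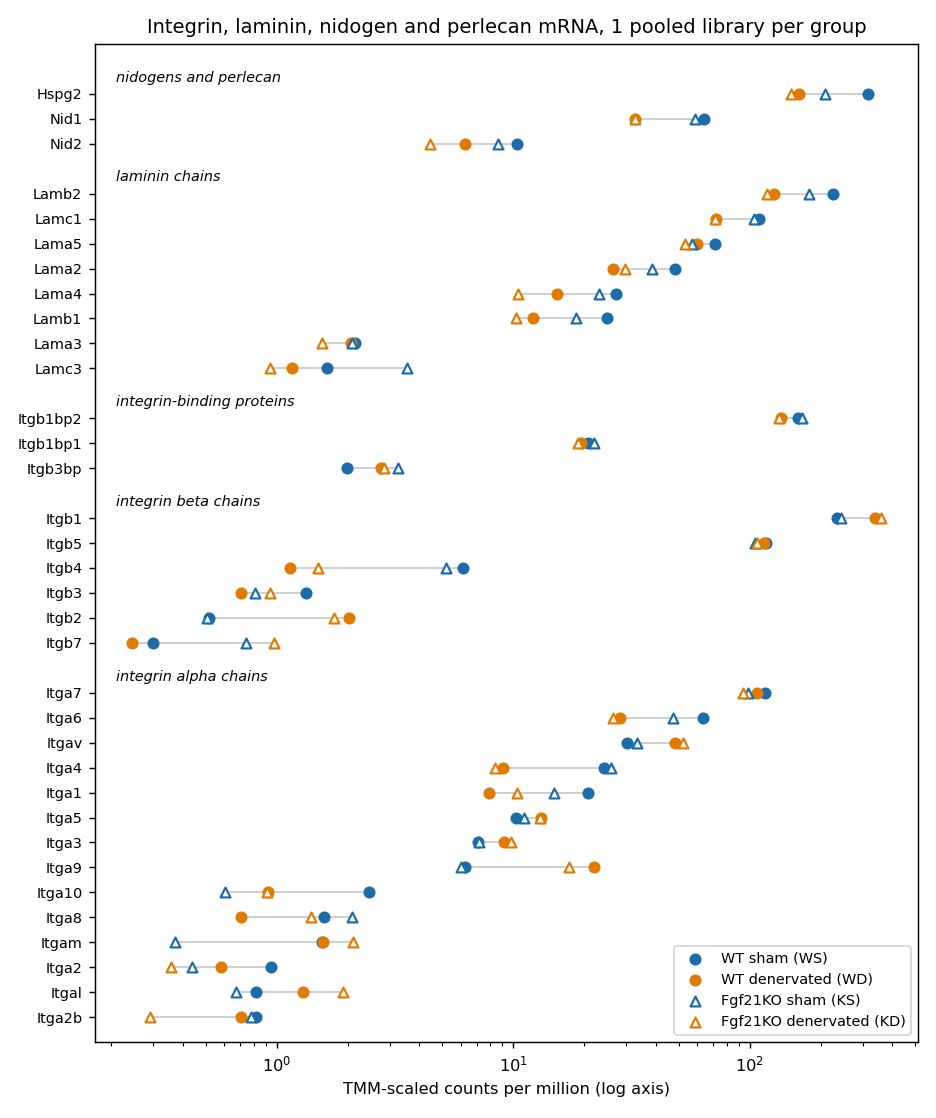
TMM-scaled CPM (log axis) of 34 of the 35 genes in the 4 libraries, 1 point per pooled library, with filled circles for WT, open triangles for Fgf21KO, blue for sham and orange for denervated. Orange lies left of blue for Nid1, Nid2, Hspg2, Lamb2, Lamc1, Lamb1, Lama4, Lama2, Itga6, Itga4, Itga1 and Itgb4, and right of blue for Itgb1, Itgav, Itga9 and Itgb2.

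Of the 9 laminin chains 6 fell, Lama2, Lama4, Lamb1, Lamb2, Lamc1 and Lamc3, and none rose. Lamb2 was the highest laminin gene per exon length in each library, at 37.1 (WS), 20.8 (WD), 29.4 (KS) and 19.4 (KD) CPM per kb. Its counts were 5248 (WS), 4133 (WD), 5305 (KS) and 3657 (KD), and it fell by 0.83 (interval -0.89 to -0.77) on the log2 scale in WT and by 0.59 (-0.66 to -0.53) in Fgf21KO muscle, with an additive fold of 1.64 and an adjusted p of 1.09e-07. Both denervated libraries were lower than both sham libraries. Lamc1, the common gamma chain, went from 109 to 71.9 CPM in WT and from 104 to 71.2 CPM in Fgf21KO muscle, so that the sham pools were alike and the denervated pools were alike (adjusted p = 1.37e-06). Lamb1, the beta chain that takes the place of Lamb2 in many tissues, fell from 24.9 to 12.2 CPM and from 18.3 to 10.3 CPM, log2 ratios of -1.03 and -0.83 (adjusted p = 1.12e-06).

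Among the laminin alpha chains the responses were unequal. Lama2, whose loss causes congenital muscular dystrophy, had 1125 (WS), 865 (WD), 1143 (KS) and 913 (KD) counts, or 48.3, 26.5, 38.5 and 29.5 CPM. Its log2 ratio was -0.86 (interval -1.0 to -0.74) in WT and -0.38 (-0.51 to -0.25) in Fgf21KO muscle, and the additive test gave an adjusted p of 3.54e-05. With total counts its additive log2 change shrank from -0.62 to -0.30 and barely passed that test (adjusted p = 0.049). Lama4, a chain of endothelial and nerve basement membranes, fell from 27.3 to 15.3 CPM in WT and from 23.1 to 10.5 CPM in Fgf21KO muscle, log2 ratios of -0.83 and -1.13 (adjusted p = 4.29e-07). Lama5, a chain of mature vessels and of the synapse, had 71.5 (WS), 59.7 (WD), 57.1 (KS) and 53.3 (KD) CPM, and did not pass the test (adjusted p = 0.0623), though it passed as lower with DESeq2 size factors (0.0415, range 0.0415 to 0.782 over the alternatives). It was the alpha chain that changed least among those above 100 counts, and its direction turned to higher with total counts in both genotypes. Lama3, with 48 to 67 counts per library, did not pass either (adjusted p = 0.514).

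Because these chains moved unequally, the make-up of the laminin alpha pool differed between sham and denervated libraries, and a ratio of genes within a library needs no scaling. Per exon length, Lama5 made up 53.7% of the summed laminin alpha chains in WS and 52.9% in KS, and 63.0% in WD and 62.4% in KD. The ratio of Lama5 to Lama2 per kb was 2.12 (interval 1.97 to 2.29) in WS and 2.13 (1.97 to 2.30) in KS, against 3.23 (2.98 to 3.50) in WD and 2.59 (2.39 to 2.81) in KD. The intervals of the sham libraries overlapped each other and lay below those of the denervated libraries. Lama4 to Lama2 was 0.764 in WS, 0.779 in WD and 0.813 in KS but 0.482 (0.423 to 0.548) in KD, the only library whose interval lay apart from the other three. Lamb2 exceeded Lamb1 per kb in each library, by 14.8-fold and 15.9-fold in WS and KS and by 17.0-fold and 18.8-fold in WD and KD, with overlapping intervals between the libraries of a genotype.

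**Figure D2:**
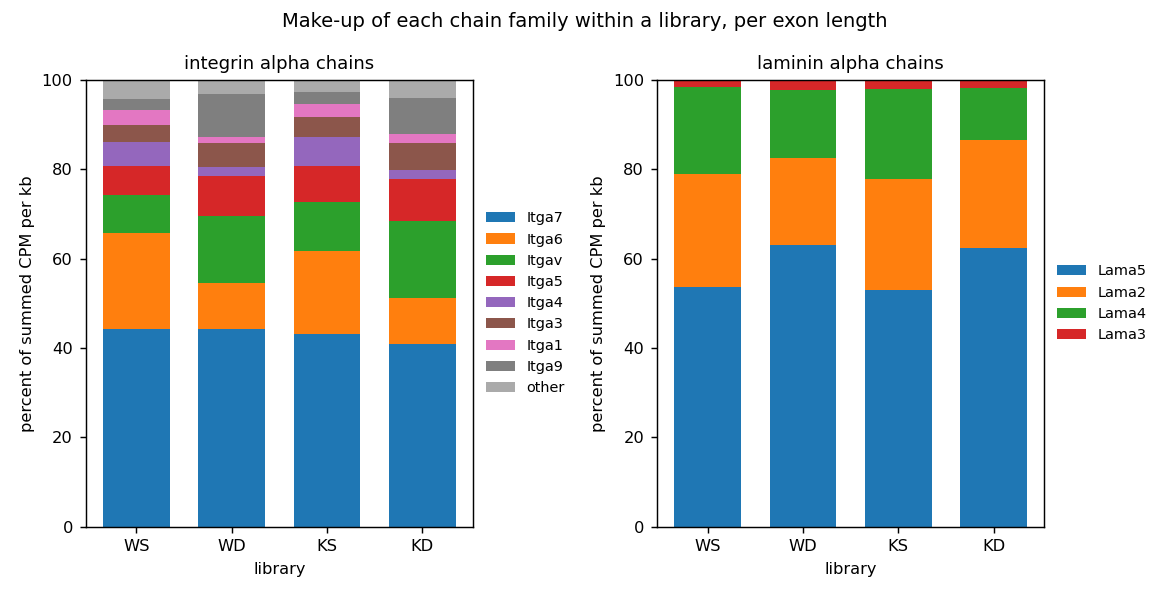
Percent of the summed CPM per kb of exon that each chain took within a library, for the 14 integrin alpha chains (left) and the 4 laminin alpha chains (right), with bars for WS, WD, KS and KD. Lama5 rises from 53.7% and 52.9% in the sham bars to 63.0% and 62.4% in the denervated bars, and Itga9 from 2.50% and 2.76% to 9.46% and 7.95%, while Itga6 shrinks from 21.5% and 18.6% to 10.4% in each denervated bar.

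The proteins that bridge the laminin and collagen networks fell as well. Nid1, nidogen 1, had 63.8 (WS), 32.6 (WD), 58.9 (KS) and 32.7 (KD) CPM, a fall of 0.97 (interval -1.08 to -0.85) on the log2 scale in WT and of 0.85 (-0.96 to -0.74) in Fgf21KO muscle (adjusted p = 1.22e-08). The denervated pools of both genotypes were alike and lay below both sham pools. Nid2, its less abundant relative, had 10.4, 6.26, 8.62 and 4.46 CPM in the same order (adjusted p = 2.11e-04). Hspg2, the large heparan sulfate proteoglycan perlecan, had 317 (WS), 162 (WD), 208 (KS) and 150 (KD) CPM. Its WT ratio of -0.97 (interval -1.02 to -0.92) was larger in size than its Fgf21KO ratio of -0.47 (-0.53 to -0.42), and the WS library stood above the other sham library. With total counts these ratios of Hspg2 were -0.69 and -0.12, and it still passed the additive test as lower (adjusted p = 6.46e-03). Per exon length the summed signal of these 3 genes went from 33.3 to 17.2 CPM per kb in WT and from 24.7 to 16 in Fgf21KO muscle.

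Among the integrins, the strongest fall was that of Itgb4, the partner of Itga6 in epithelial hemidesmosomes and in Schwann and perineurial cells. It had 142 (WS), 37 (WD), 155 (KS) and 46 (KD) counts, and log2 ratios of -2.36 (interval -2.99 to -1.90) and -1.76 (-2.32 to -1.33), with an adjusted p of 6.77e-07. The denervated library was 5.13-fold lower in WT and 3.40-fold lower in Fgf21KO muscle, with no overlap between sham and denervated libraries. Itga6, a laminin-binding alpha chain of endothelium, Schwann cells and satellite cells, had 63.2 (WS), 28.3 (WD), 47.4 (KS) and 26.5 (KD) CPM. It was called lower with an additive log2 change of -1.0 (adjusted p = 1.36e-08), but that value sat at the 2-fold line and became -0.68 with total counts and -0.85 with total counts of the nuclear genes. Itga1, a collagen-binding chain of vessels and stroma, had 20.7 (WS), 7.88 (WD), 14.9 (KS) and 10.4 (KD) CPM. It fell in the additive test (adjusted p = 4.14e-05), by 1.38 (interval -1.62 to -1.17) on the log2 scale in WT and by 0.52 (-0.73 to -0.31) in Fgf21KO muscle.

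A pair of closely related alpha chains moved in opposite directions. Itga4 and Itga9 are the members of one subfamily of alpha chains, both pair with Itgb1, and both bind fibronectin variants, osteopontin and VCAM1. Itga4 had 562 (WS), 295 (WD), 771 (KS) and 260 (KD) counts, and fell by 1.41 (interval -1.63 to -1.21) in WT and by 1.62 (-1.83 to -1.42) in Fgf21KO muscle on the log2 scale (adjusted p = 1.32e-09). Itga9 had 146 (WS), 713 (WD), 178 (KS) and 534 (KD) counts, and rose by 1.79 (1.54 to 2.07) and 1.52 (1.28 to 1.78), with an adjusted p of 2.11e-09. For each gene the sham libraries lay on one side and the denervated libraries on the other. In sham muscle Itga4 was the higher of the pair per exon length, at 1.73 against 0.816 CPM per kb in WS and 1.86 against 0.779 in KS. In denervated muscle the order was turned, with 0.647 against 2.84 CPM per kb in WD and 0.602 against 2.25 in KD.

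The promoters of this opposed pair are shown as the 250 bases before each gene's start in RefSeq (GRCm38.p6, the build of the reference table, whereas the labels name GRCm39), with E-boxes (CANNTG, the sites that myogenic bHLH factors bind) in capitals. Itga4 lies at chr2:79255176-79255425 and Itga9 at chr9:118711442-118711691, both on the plus strand.
Itga4: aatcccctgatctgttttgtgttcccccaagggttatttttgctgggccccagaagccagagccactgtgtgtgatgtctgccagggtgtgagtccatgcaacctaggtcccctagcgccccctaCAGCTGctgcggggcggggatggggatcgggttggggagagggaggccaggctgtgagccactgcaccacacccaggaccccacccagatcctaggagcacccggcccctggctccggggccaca
Itga9: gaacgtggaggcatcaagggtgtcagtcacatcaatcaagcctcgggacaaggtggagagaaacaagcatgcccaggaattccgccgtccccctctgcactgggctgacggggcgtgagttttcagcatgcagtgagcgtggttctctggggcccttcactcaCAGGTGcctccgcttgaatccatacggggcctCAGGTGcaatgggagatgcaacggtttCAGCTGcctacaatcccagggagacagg
The Itga9 window holds 3 E-boxes, which begin 87, 55 and 28 bases before the start, and the Itga4 window holds 1, which begins 125 bases before it. CANNTG reads the same on both strands, and 66.2% of the 32851 promoters of this length hold at least 1. TGTGGT, the core that RUNX factors bind, was searched on both strands as well and occurs once in the Itga4 window, not in that of Itga9, and in 14.0% of all promoters. Of the 35 genes, 22 have a promoter entry, of which 15 hold an E-box and 2 hold TGTGGT.

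Itgb1, the common beta chain, and Itgav, the alpha chain of the RGD-binding integrins, rose by less than 2-fold. Itgb1 had 234 (WS), 338 (WD), 243 (KS) and 359 (KD) CPM, a rise of 0.53 (interval 0.49 to 0.58) on the log2 scale in WT and of 0.56 (0.52 to 0.61) in Fgf21KO muscle, with an adjusted p of 1.36e-06. Itgav went from 30.2 to 48.3 CPM and from 33.4 to 52.0 CPM (adjusted p = 1.40e-06). For both genes the genotypes lay close together and the denervated libraries were the higher ones. Itga3, another laminin-binding alpha chain, rose from 7.09 to 9.14 CPM and from 7.14 to 9.80 CPM (adjusted p = 0.0257), but did not pass in DESeq2's Wald test (adjusted p = 0.226). Itga5, the fibronectin receptor chain, went from 10.3 to 13.1 CPM and from 11.1 to 13 CPM and did not pass (adjusted p = 0.0681), but passed as higher with total counts.

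The main laminin receptor chain of the fibre did not pass the test. Itga7 had 116 (WS), 107 (WD), 98.4 (KS) and 93.5 (KD) CPM, with log2 ratios of -0.12 (interval -0.19 to -0.04) and -0.07 (-0.15 to 0.00) and an adjusted p of 0.285. It stayed the highest alpha chain, with 44.1% (WS), 44.2% (WD), 43.1% (KS) and 40.9% (KD) of the summed alpha chains per exon length. With total counts its direction was higher in both genotypes and it passed as higher (additive log2 change 0.22, adjusted p = 0.0147). Itgb5, which pairs with Itgav, had 117, 115, 105 and 107 CPM (adjusted p = 0.994), so that its ratio to Itgb1 per kb went from 0.575 (interval 0.549 to 0.602) in WS to 0.391 (0.376 to 0.405) in WD, and from 0.499 (0.479 to 0.521) in KS to 0.343 (0.330 to 0.356) in KD. Itgb5 too passed as higher with total counts (0.32, adjusted p = 1.86e-03). Itgb1bp2, known as melusin, a muscle chaperone that binds the Itgb1 tail, had the highest CPM per kb of the 35 genes in both sham libraries. It went from 160 to 136 CPM and from 166 to 133 CPM, a fall (adjusted p = 2.57e-03) that was lost with either of the total count scalings. Itgb1bp1, which binds the same tail and restrains integrin activation, had 18.7 to 21.9 CPM in all libraries (adjusted p = 0.198), and Itgb3bp, a centromere protein despite its name, had 46 to 97 counts (adjusted p = 0.739).

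Integrins of white blood cells were scarce and mostly higher after denervation. Itgb2, the beta chain shared by the leukocyte integrins, had 12 (WS), 66 (WD), 15 (KS) and 54 (KD) counts, and rose by 1.84 (interval 1.07 to 3.0) and 1.66 (0.94 to 2.72) on the log2 scale (adjusted p = 2.97e-04). Its partners did not repeat between genotypes as closely. Itgal, the lymphocyte alpha chain, had 19 (WS), 42 (WD), 20 (KS) and 59 (KD) counts, log2 ratios of 0.62 and 1.41 (adjusted p = 0.0183). Itgam, the alpha chain of macrophages and neutrophils, had 36, 51, 11 and 65 counts, so that its Fgf21KO ratio of 2.31 rested on the low KS library while its WT ratio was 0.01 (interval -0.63 to 0.67), and the additive test gave an adjusted p of 0.0462. DESeq2's Wald test made neither call (adjusted p = 0.214 for Itgal and 0.183 for Itgam). Beside these values, all 7 macrophage markers listed (Cd68, Adgre1, Csf1r, Mrc1, Cd163, C1qa and C1qb) had additive log2 changes above 0, from 0.48 to 3.37. Of these markers 5 rose, against 26.4% of all genes. The summed level of all 7 went from 19.0 to 47.5 CPM in WT and from 21.1 to 43.6 CPM in Fgf21KO muscle. Their part in the Itgb2 result was not tested, and more cells of a type cannot be told apart from more RNA per cell in such bulk samples. Of 3 neutrophil markers listed 2 were tested, and neither S100a9 (adjusted p = 0.0697) nor Csf3r (adjusted p = 0.534) passed. Itgb7, with 7 to 30 counts, did not pass (adjusted p = 0.776), and neither did the platelet chain Itga2b (adjusted p = 0.191). Itga2b had 19 (WS), 23 (WD), 23 (KS) and 9 (KD) counts, with log2 ratios of -0.19 (interval -1.15 to 0.75) in WT and -1.23 (-2.71 to -0.25) in Fgf21KO muscle, where the KD library was the low one.

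The remaining members were near the bottom of the range. Itga10, a collagen-binding chain, had 57 (WS), 30 (WD), 18 (KS) and 28 (KD) counts. Its log2 ratio was -1.35 (interval -2.10 to -0.75) in WT and 0.53 (-0.33 to 1.52) in Fgf21KO muscle, so the WS library stood above the other three and the groups did not repeat. Itga2, another collagen-binding chain, had 22 (WS), 19 (WD), 13 (KS) and 11 (KD) counts, and Itgb3, which pairs with Itgav and Itga2b, had 23 to 31. Itga10, Itga2 and Itgb3 did not pass the test (adjusted p = 0.280, 0.351 and 0.487). Itga8, a chain of smooth muscle and mesenchyme, had 37 (WS), 23 (WD), 62 (KS) and 43 (KD) counts, log2 ratios of -1.10 and -0.56. It fell with TMM (adjusted p = 0.0436) and with DESeq2 size factors (0.0316) but not with either of the total count scalings (0.207 and 0.0924) or in DESeq2's Wald test (0.264). Lamc3 had 38, 38, 106 and 29 counts in the same order and log2 ratios of -0.46 and -1.85, so its lower call (adjusted p = 5.87e-03) rested on the high KS library, and it was lost in DESeq2's Wald test (adjusted p = 0.0773) and with total counts (0.0516).

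**Figure D3:**
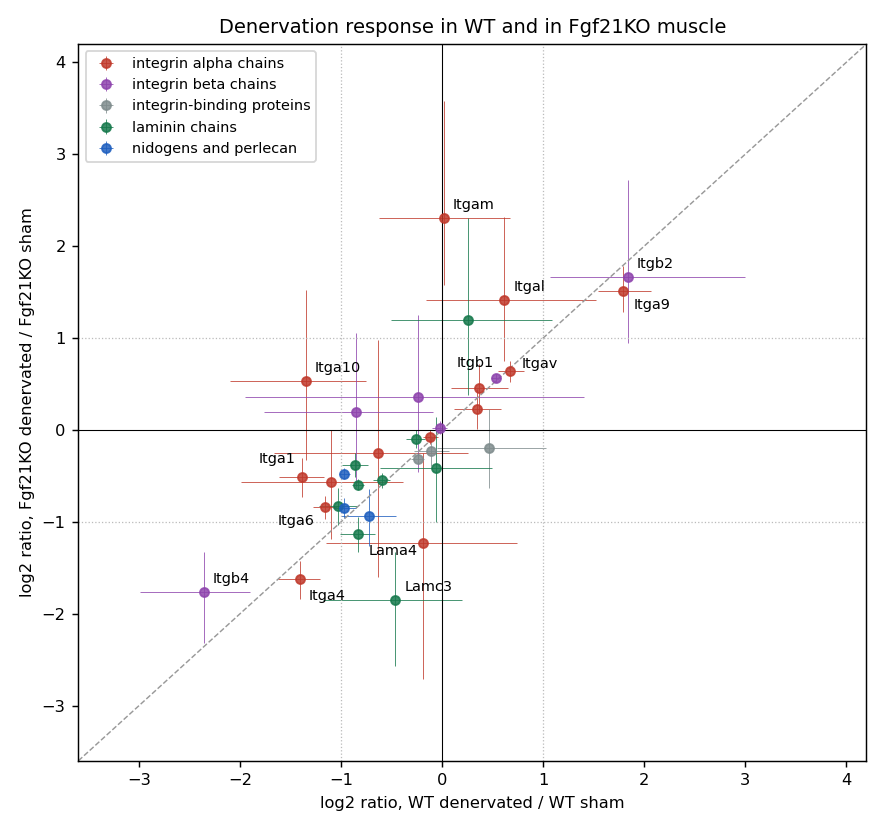
Log2 ratio of denervated to sham muscle in WT (x axis) and in Fgf21KO (y axis) for the 35 genes, with 95% counting intervals as lines, dotted lines at 2-fold and a dashed line where both genotypes are equal. Itga9 and Itgb2 lie at the upper right and Itgb4 and Itga4 at the lower left, near the dashed line, while Itgam, Itga10 and Lamc3 lie away from it with wide intervals.

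Genes that work beside these members were taken from lists of related genes. Of 25 other basement membrane genes tested, 19 passed the adjusted p, 2 as higher and 17 as lower, against 26.4% and 26.6% of all genes. At least 2-fold, 9 were called, 1 higher and 8 lower, against 6.8% and 6.15%. Their median log2 ratio was -0.94 for WT and -0.71 for Fgf21KO, against 0.01 for all genes. Col4a3 (additive log2 change -2.17) and Egflam, which encodes the dystroglycan ligand pikachurin (-1.85), were the lowest called genes, and Col4a5 was the called gene that rose, from 30 to 226 counts in WT and from 40 to 243 in Fgf21KO muscle. Col4a3 and Col4a5 are chains of the collagen IV found at the synapse. Of 7 synaptic basement membrane genes tested, which share Col4a3, Col4a4, Col4a5 and Agrn with the list above, Col25a1 (3.06) and Col4a5 (2.49) were called higher and Col4a3 and Col4a4 (-1.24) lower. The 9 other laminin receptors included 1 called higher, Sdc4, the syndecan that joins integrins in focal adhesions (1.59). They also included 1 called lower, Bcam, the receptor for Lama5 (-1.29). For the synaptic genes and the laminin receptors alike, the calls stand against 6.8% higher and 6.15% lower among all genes. By adjusted p alone, 3 of the laminin receptors rose and 5 fell, against 26.4% and 26.6%.

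For the ligands of integrins outside the basement membrane, 20 genes were tested, and 3 rose and 10 fell (26.4% and 26.6% of all genes). Spp1, which encodes osteopontin, a ligand of the Itga9, Itga4 and Itgav integrins, was called highest with 82 (WS), 2283 (WD), 70 (KS) and 1355 (KD) counts, an additive log2 change of 4.27. Ccn1, another ligand of Itgav integrins, rose by 2.58, and Vtn, vitronectin, fell by 1.73 and Icam2, a ligand of Itgal with Itgb2, by 1.06. Inside the cell, 32 genes of the adhesion complex were tested, of which 7 rose and 13 fell, against the same 26.4% and 26.6%. Csrp3, the muscle LIM protein of the Z-disc and costamere (2.03), and Src, the adhesion kinase (1.95), were called highest, and Lims2, a PINCH adaptor of integrin-linked kinase (-1.29), and Tns1, tensin 1 (-1.09), were called lowest. The median log2 ratio of these 32 was -0.17 for WT and -0.10 for Fgf21KO.

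Markers of endothelium, pericytes and smooth muscle fell, as most of the basement membrane genes did. All 7 endothelial markers (Pecam1, Cdh5, Kdr, Tek, Vwf, Emcn and Cldn5) fell, with additive log2 changes from -1.16 to -0.39, and their summed level went from 476 to 224 CPM in WT and from 385 to 212 CPM in Fgf21KO muscle. The 4 pericyte and smooth muscle markers tested of 5 listed (Pdgfrb, Rgs5, Myh11 and Notch3) also fell, from 677 to 283 CPM in sum in WT and from 623 to 279 CPM in Fgf21KO muscle. Of 6 markers of fibro-adipogenic progenitors 4 fell, with additive log2 changes from -0.72 to -0.16 over the list. The -0.16 was that of Pi16, whose log2 ratio was 0.72 in WT and -1.05 in Fgf21KO muscle. Of 3 Schwann cell markers tested of 6 listed 1 fell, Mbp (-0.51). For each of these lists, the share of all genes that fell was 26.6%. The part of these cell types in the fall of the laminins, nidogens, Hspg2, Itga1, Itga6 and Itgb4 was not tested. Of 6 muscle fibre markers only Myh1 was in the table, where its 510937 to 641610 counts per library mark the tissue as muscle. Myh1 itself fell, with log2 ratios of -0.63 in WT and -0.30 in Fgf21KO muscle (adjusted p = 1.02e-03). No marker of satellite cells, T cells, B cells or epithelium was tested.

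**Figure D4:**
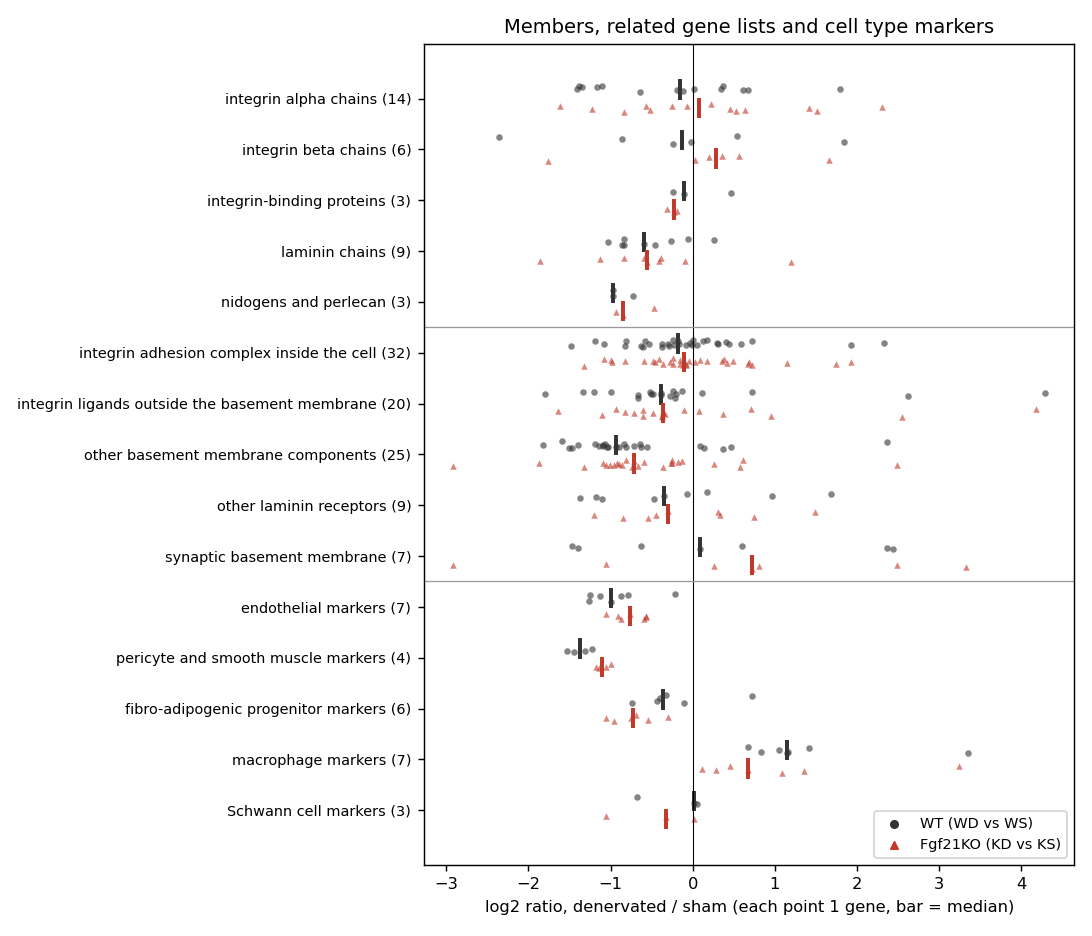
Log2 ratio of denervated to sham muscle for each gene of the member groups (top), of the related gene lists (middle) and of the cell type marker lists (bottom), with black circles for WT, red triangles for Fgf21KO and a bar at each list's median; the number of genes is in brackets. The medians of the laminin chains (-0.60 and -0.55), the nidogens and perlecan (-0.97 and -0.85) and the other basement membrane genes (-0.94 and -0.71) lie on the same side as those of the endothelial (-0.99 and -0.77) and the pericyte and smooth muscle markers (-1.37 and -1.10).

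Between the genotypes no member passed the adjusted p. In the additive test of genotype by edgeR's quasi-likelihood method, 0 of the 35 passed the adjusted p (lowest 0.0897, Hspg2), against 0.573% of all genes (0.268% higher, 0.306% lower), and 0 were called, against 0.168% (0.0611% higher, 0.107% lower). DESeq2's Wald test also called 0. For genotype both tests took the sham and denervated libraries as replicates, although these may come from the same mice. At an unadjusted p below 0.05, 10 of the 35 passed, against 7.63% of all genes: Itgb7 was higher in Fgf21KO, against 3.29%, and 9 were lower, against 4.34% (Hspg2, Lama4, Lama5, Lamb1, Lamb2, Nid2, Itga6, Itga7 and Itga10). By the log2 ratio alone, KS and WS differed 2-fold or more for 5 of the 35, where 2.04% of all genes did; 2 were higher, against 0.887%, and 3 lower, against 1.15%. For KD against WD there were 2, where 1.56% of all genes passed; 1 was higher, against 0.841%, and 1 lower, against 0.718%. In KS vs WS these were Itgb7 (1.13), Lamc3 (1.10), Itga2 (-1.0), Itgam (-1.88) and Itga10 (-1.90), and in KD vs WD they were Itgb7 (1.73) and Itga2b (-1.11). Apart from Lamc3 each had a mean count under 50. Itgb7 was higher in the Fgf21KO library in both states, with 7 and 8 counts in the WT libraries and 22 and 30 in the Fgf21KO libraries, and its genotype test gave an adjusted p of 0.228. Among the 25 members with a mean count of at least 50, log2 ratios ran from -0.61 (Hspg2) to 1.10 (Lamc3) in KS vs WS and from -0.54 (Lama4) to 0.40 (Itga1) in KD vs WD.

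The laminins, nidogens and perlecan tended to be lower in the Fgf21KO library of sham muscle. Their log2 ratio in KS vs WS was below 0 for 11 of 12, Lamc3 being the exception, against 49.9% of all genes, and in KD vs WD it was below 0 for 10 of 12, against 51.5%. The median over the 9 laminin chains was -0.32 in sham and -0.16 in denervated muscle. None of these passed the adjusted p of the genotype test. The summed level of the endothelial markers was 476 CPM in WS and 385 in KS, and that of the pericyte and smooth muscle markers 677 and 623. The fibro-adipogenic progenitor markers (271 and 326 CPM) and the macrophage markers (19.0 and 21.1 CPM) were instead higher in KS. The part of any cell type in these genotype ratios was not tested.

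**Figure D5:**
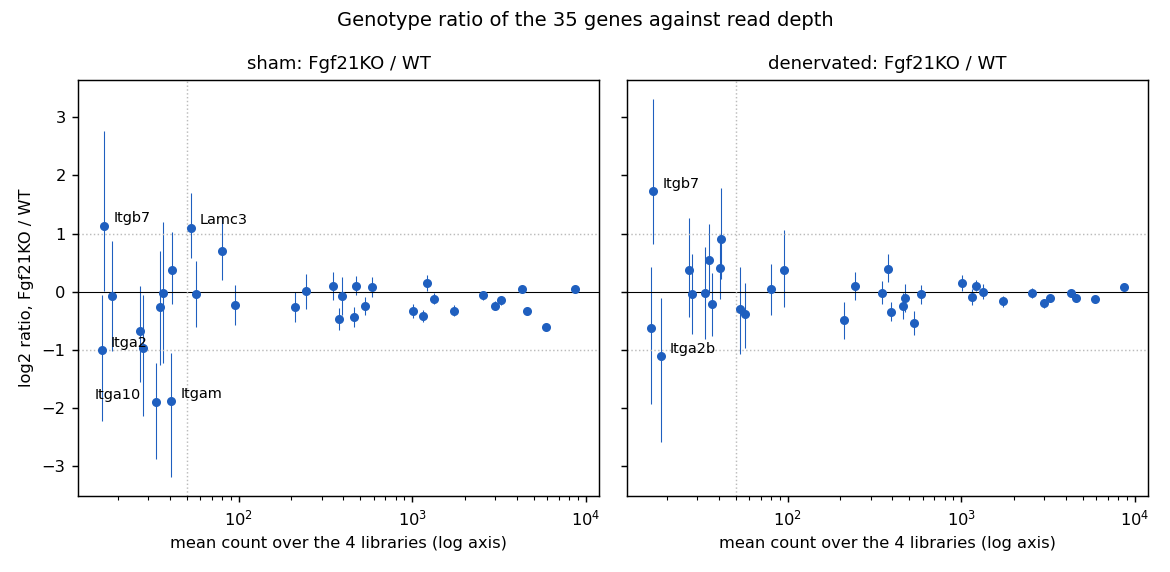
Log2 ratio of Fgf21KO to WT for the 35 genes in sham muscle (left) and denervated muscle (right) against their mean count over the 4 libraries (log axis), with 95% counting intervals as lines, dotted lines at 2-fold and at a mean count of 50. The labelled genes past 2-fold lie at the low-count end, and those above 500 mean counts stay within 0.61 of 0.

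The response to denervation itself could not be tested for a difference between genotypes. A term for that difference would use up the 1 residual degree of freedom that the additive model leaves. As a description, the difference between the denervation log2 ratios (Fgf21KO minus WT) had a counting interval that excluded 0 for 11 of the 35, against 29.3% of all genes. Hspg2 (0.49, interval 0.42 to 0.57), Lama2 (0.48, 0.30 to 0.66), Lamb2 (0.24, 0.15 to 0.32), Itga6 (0.32, 0.15 to 0.49) and Itga1 (0.87, 0.57 to 1.17) had the smaller falls in Fgf21KO muscle, and their level in KS was below that in WS. Lama4 had the larger fall in Fgf21KO muscle (-0.30, -0.55 to -0.04), and the difference of Lama5 was 0.16 and that of Itgb3bp -0.66. The largest differences, those of Itgam (2.29), Itga10 (1.88) and Lamc3 (-1.39), came with 11 to 106 counts per library. By contrast, the differences of Itgb1 (0.03), Itgav (-0.04), Lamc1 (0.05) and Nid1 (0.12) were small, and their intervals reached no further than 0.28 from 0.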

How the data were processed

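RNA was measured in 4 libraries of tibialis anterior muscle (stranded mRNA kit), 1 per group, each a pool of 4 muscles, so no group had replicates. The authors deposited whole-number read counts per gene. Per the labels the build was GRCm39 and FastQC was run; the aligner and the counter are not given in the sources used here. A second deposited table, named FPKM by the authors, holds log2 values that match the counts times 1 factor per library, plus 1, with no length term; it served only as an alternative.

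Scaling used TMM on all 13825 genes (edgeR 4.0.16, R 4.3.3). The 13084 genes averaging at least 10 counts were kept, and log2 ratios used CPM with a prior count of 2. The test of denervation and of genotype was edgeR's quasi-likelihood test (glmQLFit, glmQLFTest) in an additive model over the 4 libraries, with Benjamini-Hochberg adjustment over all genes, a threshold of 0.05 and, for calls, 2-fold. The common BCV was 0.0682. Intervals are exact conditional 95% intervals (Clopper-Pearson) for a ratio of 2 counts, and normal ones for the difference of ratios; they cover counting error only, and reads are not independent molecules. Levels per kb used GENCODE M21 exon lengths (GRCm38), and promoters came from RefSeq (GRCm38.p6). Alternatives were other scalings, filters, prior counts, the deposited log2 values, DESeq2 1.42.0 and edgeR exact tests at an assumed BCV. The scripts were tested on simulated data. The members, gene lists and marker lists were chosen with earlier results of these data known. Apart from 1 member that is counted but not reported here by itself, all members were printed, with full values for those past 2-fold or called and for a set of core fibre genes. From each list of related genes the 2 highest and 2 lowest called genes averaging at least 50 counts were named.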

Additional observations from a re-analysis of the deposited data

Results flagged for a closer look

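For 5 of the 35 genes the log2 ratio of denervated to sham muscle had opposite signs in the 2 genotypes, against 17.1% of all genes. The difference (Fgf21KO minus WT) was 1.88 (counting interval 0.81 to 2.95) for Itga10, 1.06 (-0.05 to 2.16) for Itgb3, -0.66 (-1.32 to -0.00) for Itgb3bp, 0.045 (-0.05 to 0.15) for Itgb5 and 0.60 (-1.07 to 2.26) for Itgb7. With 1 library per group these differences between genotypes were not tested. For none of the 5 did the counting intervals of both genotypes exclude 0. Itga10, Itgb3 and Itgb7 had mean counts under 50, and Itgb5 lay near 0 in both genotypes, at -0.02 and 0.02.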

How the results depend on the processing

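No analysis paired by mouse was possible because the labels carry no pairs and a group is 1 pool of muscles, and for that reason no replicate could be left out. The denervation term of the additive model did compare the sham and denervated pools within each genotype. Of the counts of members under the alternatives, 36 stayed within 1.5 times the main count and 18 did not. No called value changed sign. The sign of small ratios that were not called, those of Itga7, Itgb5 (WT) and Lama5 among them, turned with total counts. The cause of the moves was not tested. With the deposited log2 values the members 2-fold or more apart became 5 rather than 9 (WD and WS), 6 rather than 10 (KD and KS), 1 rather than 5 (KS and WS) and 0 rather than 2 (KD and WD). Among genes averaging at least 50 counts they became 5, 1 and 0 for the last 3 of these comparisons, and with a prior count of 5 they became 3 and 1 for the 2 genotype comparisons. In edgeR's exact test at an assumed BCV of 0.1, 2 passed between the sham and 0 between the denervated libraries, and at 0.4 it was 0 in all 4 comparisons. The 8 denervation calls became 5 with a mean count of at least 50, 5 with DESeq2's Wald test, and 22 by adjusted p alone. No member was called for genotype under any alternative run. With total counts, Itga6 (-0.68) and Lamc3 (-0.92) lost their denervation calls, and Itga6 (-0.85) lost its call with total counts of the nuclear genes. Depth limits the 10 members with a mean count under 50 most.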
